A study of Mus musculus with 20 samples.

Results

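Gene deserts are long stretches of the genome with no protein-coding gene, and the open chromatin they hold lies far from any coding transcription unit. All peaks of 20 ATAC-seq peak lists that shared at least 1 bp were merged, which gave 101352 regions. The gene-desert regions are the 8826 of these (8.71%) that lie more than 100 kb from the span of each of 21631 protein-coding genes of GRCm38. The rule uses distance and no strength or group, though a region exists only where at least 1 list called a peak. The 3 regions just inside the limit lay 100.037, 100.046 and 100.062 kb from Ext1, Chst15 and Magi3, and were called in 17, 15 and 13 libraries. The 3 just outside lay 99.982, 99.973 and 99.951 kb from Ppp1r12a, Dysf and Irx3, and were called in 3, 4 and 17 libraries.

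The cells were C2C12, a mouse myoblast line that can form muscle cells in culture, either wild type (WT) or carrying a knockout (KO) of Setd2, the enzyme that writes trimethylation of histone H3 lysine 36 over transcribed genes. Libraries were made at day 0 (D0), and at day 1 (D1) and day 5 (D5) in 1 of 2 media, a control (CTL) and one restricted in methionine (MR), which limits the amino acid from which the methyl donor is made. That gives 10 groups of 2 libraries: WT and KO at D0, D1 CTL, D1 MR, D5 CTL and D5 MR. The 2 WT libraries of a group carry replicate numbers, and the 2 KO libraries come from KO line 1 and KO line 2, so each KO line is sampled again in every condition; how the lines were derived, and what the cells did between days, are not given in the sources used here.

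ATAC-seq uses a transposase to cut accessible DNA and add sequencing adapters to it, and a peak is a place with more cuts than the background. Accessible sites far from genes are mostly candidate enhancers, insulator sites bound by CTCF, or promoters of long non-coding RNAs, and developmental regulator genes are known for the large deserts beside them. A distal site can act on a gene across such a distance through looping of the DNA, and a peak list alone does not show which gene that is.

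The lists held 644 to 69881 peaks. The lists of KO line 1 at D5 were by far the shortest, with 644 peaks in CTL and 1881 in MR, against at least 20847 in each of the other 18 libraries. They stand apart from the rest, and results that rest on them are given with and without them. The depth behind each list is unknown, since no read total was used here, and a longer list can come from deeper sequencing or a cleaner library as well as from more open sites. Nothing in the labels says that the libraries of a group were separate cultures, so the p-values measure the spread between these libraries, which may be technical.

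Only where a desert region reaches the start of an annotated non-coding RNA was its sequence at hand, in 128 promoter windows of 114 genes (250 bases before to 50 after the start; RefSeq, GRCm38.p6), which 117 desert regions overlapped. None of these genes is protein-coding, which the distance rule fixes in advance. The windows below are picked examples and do not stand for the 128. The first 3 lie wholly in regions called in 19 of 20 libraries, where the median over desert regions was 3. Morrbid and Firre are long non-coding RNA genes that hold many desert regions. Gm33624 lies in a region that all 10 WT libraries but only 3 KO libraries called, and Gm41331 lies in one called in 3 WT and 8 KO libraries. Capitals mark matches, on either strand, to the AP-1 motif TGANTCA, the CAGCTG E-box of myogenic factors, or AGGNGGC, a core of the CTCF motif.
Gm8883, plus strand, chr1:71887862-71888161: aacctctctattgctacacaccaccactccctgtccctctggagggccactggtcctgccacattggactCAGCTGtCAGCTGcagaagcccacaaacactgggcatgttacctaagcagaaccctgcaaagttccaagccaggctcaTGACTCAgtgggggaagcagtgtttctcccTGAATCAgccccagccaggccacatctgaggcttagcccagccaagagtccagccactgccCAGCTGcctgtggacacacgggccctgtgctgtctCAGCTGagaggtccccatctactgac
LOC115487176, plus strand, chr9:61013180-61013479: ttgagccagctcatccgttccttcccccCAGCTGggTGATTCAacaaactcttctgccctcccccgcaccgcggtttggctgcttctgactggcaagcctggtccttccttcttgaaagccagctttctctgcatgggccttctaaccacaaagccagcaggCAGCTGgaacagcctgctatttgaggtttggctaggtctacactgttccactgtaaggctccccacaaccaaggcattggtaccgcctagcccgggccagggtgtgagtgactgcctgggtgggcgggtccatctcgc
4930471E19Rik, minus strand, chr10:120636058-120636357: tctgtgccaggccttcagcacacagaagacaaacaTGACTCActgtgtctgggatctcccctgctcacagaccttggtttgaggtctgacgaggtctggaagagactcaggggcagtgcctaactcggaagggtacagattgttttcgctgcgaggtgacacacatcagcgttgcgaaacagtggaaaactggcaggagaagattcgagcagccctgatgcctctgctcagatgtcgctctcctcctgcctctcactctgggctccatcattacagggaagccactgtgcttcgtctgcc
Morrbid, minus strand, chr2:128429302-128429601: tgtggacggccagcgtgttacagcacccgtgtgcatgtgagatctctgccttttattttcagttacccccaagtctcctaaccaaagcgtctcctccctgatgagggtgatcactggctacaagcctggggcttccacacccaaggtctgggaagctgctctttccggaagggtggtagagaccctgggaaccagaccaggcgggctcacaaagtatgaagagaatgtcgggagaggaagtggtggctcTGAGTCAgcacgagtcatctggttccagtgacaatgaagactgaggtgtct
Firre, minus strand, chrX:50635272-50635571: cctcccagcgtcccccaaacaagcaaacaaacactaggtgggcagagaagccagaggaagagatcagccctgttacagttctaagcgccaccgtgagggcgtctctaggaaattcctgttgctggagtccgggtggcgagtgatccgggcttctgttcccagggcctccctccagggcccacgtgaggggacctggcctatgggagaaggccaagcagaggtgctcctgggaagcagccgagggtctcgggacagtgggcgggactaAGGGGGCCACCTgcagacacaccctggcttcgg
Gm33624, minus strand, chr10:119001146-119001445: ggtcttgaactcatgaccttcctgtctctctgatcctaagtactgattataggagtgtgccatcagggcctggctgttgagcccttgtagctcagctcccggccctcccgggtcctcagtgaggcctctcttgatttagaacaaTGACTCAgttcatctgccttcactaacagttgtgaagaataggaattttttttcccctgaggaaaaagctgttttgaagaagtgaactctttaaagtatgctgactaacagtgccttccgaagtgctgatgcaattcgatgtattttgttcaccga
Gm41331, plus strand, chr15:60141661-60141960: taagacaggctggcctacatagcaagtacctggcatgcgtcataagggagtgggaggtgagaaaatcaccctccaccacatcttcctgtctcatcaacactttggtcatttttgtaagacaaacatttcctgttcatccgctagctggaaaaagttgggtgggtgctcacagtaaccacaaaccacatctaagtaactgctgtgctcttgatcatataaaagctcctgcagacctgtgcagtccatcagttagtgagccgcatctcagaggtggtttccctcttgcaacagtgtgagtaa

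The Gm8883 window held 2 AP-1 and 4 E-box matches, and the LOC115487176 window held 1 and 2. The windows of 4930471E19Rik, Morrbid and Gm33624 each held 1 AP-1 match. In the Firre window the 2 CTCF-core matches lay on opposite strands and overlapped, so they appear as 1 run of capitals, and the Gm41331 window held no match. Among the 128 windows that desert regions overlapped, 21.1% held an AP-1 match, against 7.76% of the other 32723 RefSeq windows of the same length. The E-box was in 27.3% against 16.3%, the CTCF core in 16.4% against 29.4%, and GGAATG, the TEAD motif, in 15.6% against 14.7%. These are counts of letters with no test, some windows belong to the same gene and overlap, and base composition, which the windows may not share, was not matched. Gene type and overlap with a peak were not matched either. The shares therefore do not set desert promoters apart from other open promoters of non-coding genes.

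Desert regions lay 100037 to 2094185 bp from the nearest coding gene, with a median of 196069 bp. DNA over 100 kb from a coding gene makes up 738 Mb, or 28.4%, of the span between the first and last gene of the chromosomes, and held 11.95 merged regions per Mb against 49.7 in the rest of that span. By distance, 4536 of the regions lay 100 to 200 kb away, 3405 lay 200 to 500 kb away and 885 lay over 500 kb away. The farthest, chr14:82117327-82117430 between Olfm4 and Pcdh17, was called in 3 libraries, and its neighbour chr14:82065179-82065538, 2042.04 kb from Olfm4, was called in 16.

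Although far from coding genes, 1858 desert regions (21.1%) overlapped an annotated long non-coding RNA gene, 829 such genes in all. Those holding most were 2610307P16Rik with 30 regions, Morrbid with 26, Mir100hg, the host of a microRNA cluster, with 25, Pvt1, the long non-coding RNA beside Myc, with 24, Lncpint with 22 and Firre with 21. Only 1222 desert regions (13.8%) were more than 100 kb from every annotated gene of any kind.

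Desert regions were shorter and were called in fewer libraries than other regions, with a median length of 151 bp against 174 bp and a median of 3 libraries against 6. Of the desert regions, 24.7% were called in 1 library only, against 20.04% of the other regions, and 4.03% were called in 18 or more libraries, against 11.8%. Of the 2179 called once, 625 came from KO D0 line 1, 476 from KO D1 CTL line 1 and 324 from WT D1 MR replicate 1, the 3 longest lists.

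Few desert regions were called in every list. In all 20 libraries 9 were called, or 0.102%, against 282 (0.305%) of the other regions. Each of the 9 is therefore also in the D5 lists of KO line 1, which hold only 644 and 1881 peaks. The strength of the 9 was described by the percentile of a peak's −log10 q-value among the peaks of its own list. How far selection through such short lists sets these percentiles was not tested. In 8 of the 9 the mean percentile was 92.3 or higher. They were chr15:59795752-59796177 and chr15:59759559-59760796 beside Trib1, a pseudokinase gene; chr2:137715882-137716286 between Jag1, a Notch ligand, and Btbd3; chr15:62698626-62698983, 708.264 kb from Myc; chr12:9898123-9898856 near Osr1, a developmental transcription factor; chr9:87464087-87464584 between Cep162 and Tbx18; chr5:111880277-111880671 between Mn1 and Cryba4; and chr16:93292896-93293307 between Runx1 and Setd4. The remaining one, chr6:67138359-67139237 near Gadd45a, a stress-response gene, had a mean percentile of 55.0. Next came chr13:110929585-110929919 between Plk2 and Actbl2, called in 19 libraries at a mean percentile of 99.2.

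Desert peaks made up a larger share of the KO lists than of the WT lists. At D0 the share was 5.53% and 5.73% in WT, and 8.11% in KO line 1 and 7.01% in KO line 2. At D1 in CTL it was 5.52% and 5.17% in WT and 8.89% and 7.09% in KO lines 1 and 2, and at D1 in MR 6.25% and 5.78% in WT and 9.01% and 7.34% in KO. At D5 in CTL it was 3.33% and 3.66% in WT, and 4.19% in the short list of KO line 1 (27 of 644 peaks; 95% Wilson interval 2.90% to 6.03%) and 7.02% in KO line 2. At D5 in MR it was 5.34% and 5.07% in WT, and 3.83% in the short list of KO line 1 (72 of 1881 peaks; 3.05% to 4.79%) and 6.55% in KO line 2. All 8 KO libraries other than those of line 1 at D5 lay above all 10 WT libraries, and line 1 lay above line 2 at D0 and D1. Intervals cover counting error only.

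**Figure D1:**
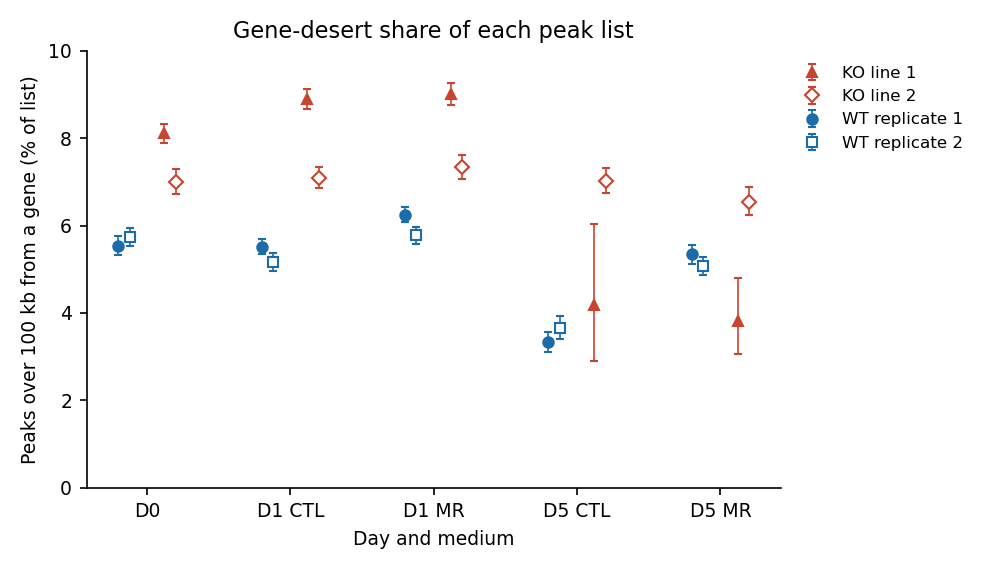
Share of each peak list that lies over 100 kb from a protein-coding gene (y axis, percent) by day and medium (x axis), 1 point per library; bars are 95% Wilson intervals. KO libraries lie between 6.55% and 9.01%, above the WT range of 3.33% to 6.25%, except the lists of KO line 1 at D5.

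Averaged over the 5 conditions, the desert share was 1.77 percentage points higher in KO (exact permutation test within conditions, two-sided, p = 0.00309, Benjamini-Hochberg adjusted p = 0.00669 over 13 tests, higher in 4 of 5 conditions). Without the D5 libraries of KO line 1 the difference was 2.32 points (exact p = 0.000514, adjusted p = 0.00669), higher in 5 of 5 conditions. The 2 KO lines recur in all 5 conditions, so the p rests on 2 lines. With libraries paired by number (the replicate block) the adjusted exact permutation p was 0.0391. That block still counts each condition of a line separately, and pairing WT libraries by number has no support beyond the number. In D1 CTL, WT replicate 2 and KO line 2 had lists of like length, 45545 and 46664 peaks, with 5.17% and 7.09% in deserts. This pair was picked with its values known and has 1 library on each side. The part of list length in the KO difference was not tested beyond the reduction that follows. Each longer list was also reduced to its 20000 strongest peaks, while the D5 lists of KO line 1 stayed at 644 and 1881. With that reduction the KO difference was 1.56 points (exact permutation p = 0.00129, adjusted p = 0.00635). It did not pass after adjustment when any of WT replicate 1, WT replicate 2 or KO line 2 was left out (1.82, 1.71 and 1.67 points; adjusted exact permutation p = 0.107, 0.134 and 0.0936), with 243 arrangements in place of 7776.

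The higher share was found on most chromosomes and in each class of distance beyond 100 kb. The KO mean was above the WT mean on 19 of 20 chromosomes, the exception being X (8.36% against 8.38%), and on 20 of 20 without the D5 libraries of KO line 1. A share computed within each chromosome and then averaged was 1.64 points higher in KO (exact permutation p = 0.00643, a check chosen after the data were seen). Peaks 100 to 200 kb from a gene were 3.70% of KO and 3.06% of WT lists, peaks 200 to 500 kb away 2.50% and 1.74%, and peaks over 500 kb away 0.699% and 0.336%. Each of these differences passed an exact permutation test adjusted over 24 tests of classes (adjusted p = 0.0278, 0.00823 and 0.00823), while that of peaks 10 to 100 kb away did not (16.6% and 16.5%, adjusted p = 0.873). Peaks 50 to 100 kb away were also higher in KO (4.74% and 4.28%, adjusted exact permutation p = 0.0408), and peaks up to 10 kb from a gene were lower (10.9% and 12.1%, adjusted exact permutation p = 0.0146). The classes were chosen after the data were seen, and shares of 1 list are not independent of each other.

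**Figure D2:**
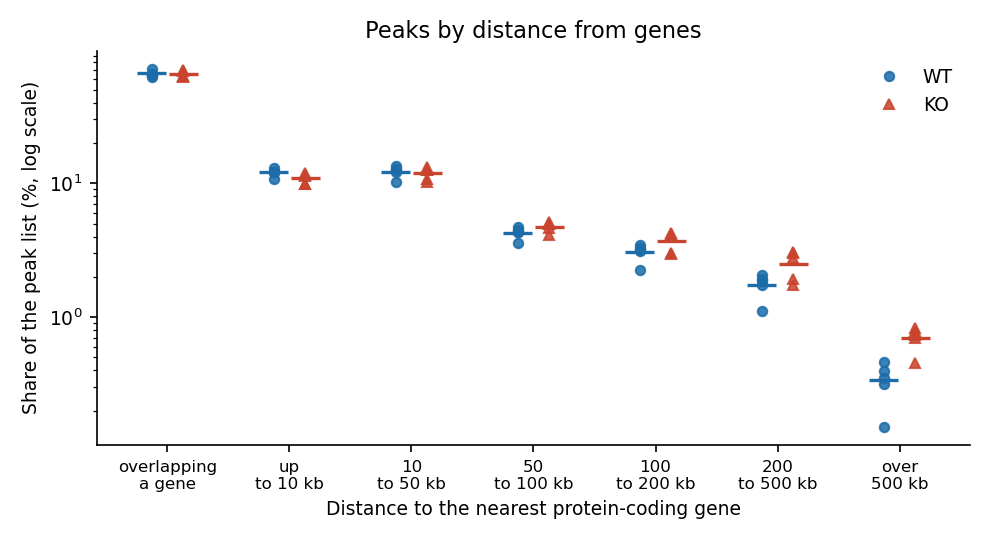
Share of the peak list (y axis, percent, log scale) in 7 classes of distance from the nearest protein-coding gene (x axis); each point is the mean of the 2 libraries of a group, 5 WT and 5 KO groups, and lines are their means. Over 500 kb from a gene the KO mean is 0.699% and the WT mean 0.336%, and up to 10 kb from a gene 10.9% and 12.1%.

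From D1 to D5 the desert share fell by 2.01 points over the 4 pairs of genotype and medium (exact permutation p = 0.00154, adjusted p = 0.00508), in 4 of 4 pairs. Without the D5 libraries of KO line 1 it fell by 1.31 points (adjusted p = 0.0401 by the exact permutation test). Each class within the deserts was lower at D5, as were all classes from the gene ends out to 100 kb, while peaks overlapping a gene were 69.4% at D5 and 63.4% at D1 (adjusted exact permutation p = 0.00823). List length moved with day: the WT CTL lists held 60173 and 45545 peaks at D1 and 22465 and 20847 at D5. With each longer list reduced to its 20000 strongest peaks the difference was −1.12 points (adjusted exact permutation p = 0.0134). The D5 lists of KO line 1 stayed at 644 and 1881 peaks, so list length was not made equal there. The part of depth in the fall was not tested further.

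The medium and the first day did not give a difference that passed. The desert share was 0.54 points higher in MR than in CTL (exact permutation p = 0.335), with both WT libraries higher in MR at each day. The 2 WT libraries at D5 had 3.33% and 3.66% in CTL and 5.34% and 5.07% in MR, and their list length moved in the same direction, from 22465 and 20847 to 39538 and 39263 peaks. D1 CTL minus D0 was 0.07 points (exact permutation p = 0.889, where the smallest p that 36 arrangements allow is 0.0556), and the interaction of genotype and medium was −1.31 points (exact permutation p = 0.407).

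Desert peaks were weaker and shorter than the other peaks of the same list. Their median percentile averaged 5.60 below that of other peaks, and their median length was 0.26 lower on the log2 scale, each lower in 10 of 10 groups (exact sign-flip permutation test over groups, p = 0.00195, the smallest that 10 groups allow, adjusted p = 0.00508). All 10 groups share 1 set of merged regions, and the KO groups hold the same 2 lines. The groups are therefore not fully independent in this test or in the agreement tests below. The median percentile of desert peaks ran from 41.3 in KO D0 line 1 to 46.6 in KO D0 line 2 among the 18 longer lists. It was 56.1 and 48.1 in the short lists of KO line 1 at D5. Set against regions 10 to 100 kb from a gene, which are intergenic too, desert peaks were 1.53 percentile points lower (adjusted exact permutation p = 0.0293) and 0.09 lower in log2 length (adjusted exact permutation p = 0.00879), each in 9 of 10 groups. Strength itself did not pass a test by genotype (1.45 percentile points, exact permutation p = 0.423), medium (−1.46, p = 0.463), D5 against D1 (1.599, p = 0.506) or D1 CTL against D0 (−0.48, p = 0.556).

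The 2 libraries of a group shared fewer of their desert regions than of their other regions. In WT the share of desert regions called in both libraries, among those called in either, was 72.8% at D0, 66.0% at D1 CTL, 70.5% at D1 MR, 65.0% at D5 CTL and 74.4% at D5 MR. The KO lines shared 35.4% at D0, 41.8% at D1 CTL and 41.5% at D1 MR, against 44.5%, 57.4% and 57.2% of the other regions. At D5 the KO lines shared 1.25% in CTL and 4.79% in MR, where line 1 had the short lists. The difference, desert minus other, was −7.57 points, lower in 10 of 10 groups (exact sign-flip permutation p = 0.00195, adjusted p = 0.00508). At equal strength, with regions matched in 10 classes of percentile, the share found again in the partner library differed by −2.96 points, desert minus other (exact p = 0.00195, adjusted p = 0.00508). Against regions 10 to 100 kb away, agreement was 3.25 points lower (adjusted exact permutation p = 0.00586).

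**Figure D3:**
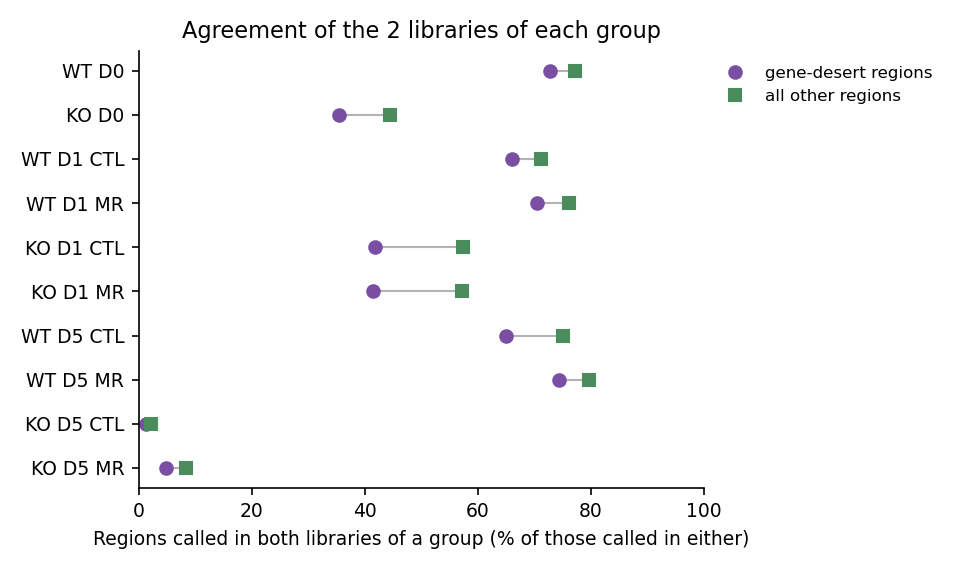
Regions called in both libraries of a group as a percent of those called in either (x axis), for gene-desert regions and for all other regions, in each of the 10 groups (y axis). Desert regions lie below other regions in each group, and the KO groups at D0 and D1 (35.4% to 41.8% of desert regions) lie below the WT groups (65.0% to 74.4%).

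The 2 KO lines differed in desert regions as they did over the genome. At D0 and D1, 945 desert regions were called in all 3 libraries of KO line 1 and none of line 2, 13.8% of the 6839 regions of the whole genome with that pattern. Of these, 549 desert regions, of 2598 over the genome, were called in no WT library of those days. In the opposite direction 72 desert regions were called in all 3 libraries of line 2 and none of line 1, 15.8% of 456 over the genome, so the 2 counts were unequal over the genome as well. Line 1 also had longer lists at D0 and D1, 48460 to 63530 peaks against 30629 to 46664 for line 2, and the part of list length in these counts was not tested.

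Single regions were tested for the number of libraries that called them, with the exact permutation test within conditions and adjustment over all testable regions of the genome. For genotype, 1445 desert regions could be tested. Of these, 144 (9.97%) were called more often in KO, where the background over all 18700 tested regions was 2.73%, and 140 (9.69%) less often, where the background was 16.1%. Desert regions made up 28.2% of all regions called more often in KO and 4.66% of those called less often. Without the D5 libraries of KO line 1, 239 desert regions had more KO calls and 58 had fewer, of 910 and 1347 over all regions. The 2 short lists called 27 and 72 desert regions, so few desert regions could reach 10 KO calls, and the 2 directions are not on equal terms with those lists in. When any of WT replicate 1, WT replicate 2 or KO line 2 was left out, no region of the genome passed, desert or other. At an unadjusted exact permutation p under 0.05 there were 352 of 1732, 360 of 1710 and 1076 of 1395 tested desert regions. Over all tested regions there were 4584 of 16413, 5205 of 17057 and 7590 of 12182.

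Of the 144 desert regions called more often in KO, 132 had no WT call, and the number of KO calls ran from 6 to 8. The 5 that led each stood without a WT call and with 8 KO calls (adjusted exact permutation p = 0.0353 each). In the desert between Bmp2, a bone morphogenetic protein, and Hao1 lay chr2:134342551-134342880. Between Rprm and Galnt13, in the non-coding gene Gm14035, lay chr2:54283910-54284113, and between Gm38481 and Rprm lay chr2:53947239-53947369. Between Epha7, an ephrin receptor, and Map3k7 lay chr4:30610530-30610756, with Map3k7 the nearer gene at 1352.73 kb. Between Insc and Sox6, a transcription factor with a role in muscle fibre type, lay chr7:115340137-115340471. The mean percentiles of the 5 where called were, in that order, 86.9, 86.9, 82.9, 81.7 and 81.6. This measure ranked them among regions with the same p.

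Of the 140 called less often in KO, 75 had no KO call. The 5 that led were chr12:79949203-79949444 between Rad51b and Zfp36l1, chr10:118675912-118676129 between Ifng and Dyrk2, and chr10:60948753-60949542 between Unc5b, a netrin receptor, and Pcbd1, each called in all 10 WT and 0 KO libraries, and chr7:51300268-51300587 between Nell1 and Ano5 and chr3:85128569-85128910 between Fbxw7 and Gatb, each called in 9 WT and 0 KO libraries (adjusted exact permutation p = 0.0353 each). The 2 beside Dyrk2 and Unc5b were weak where called, at mean percentiles of 34.3 and 34.0.

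The same lean was seen with the 2 libraries of a group set against 2 others, a count with no test, since an exact test of 2 against 2 cannot go below p = 0.333. A region counted as gained or lost when both libraries of one group called it and neither of the other did. At D0, 6.23% of desert regions were gained in KO against a background of 2.51% of all regions, and 4.40% were lost against 5.36%. At D1 CTL, 11.2% were gained against 5.41% and 3.91% lost against 6.45%, and at D1 MR 5.29% were gained against 1.61% and 12% lost against 17.7%. Over all 12 libraries of D0 and D1, 105 desert regions were called in all 6 KO and no WT library, 29.3% of the 358 regions with that pattern. In the opposite direction there were 48, or 4.85% of 989.

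By day, 854 of 1302 tested desert regions (65.6%) were called less often at D5 than at D1, near the background of 66.2%. None was called more often, where the background was 0.00619%. At an unadjusted exact permutation p under 0.05 in either direction there were 12938 of all 16153 tested regions, and 1042 desert regions. Without the D5 libraries of KO line 1 no region of the genome passed. There 7166 of all 14311 tested regions, and 555 of 1118 tested desert regions, had an unadjusted exact permutation p under 0.05. The 5 that led were called in all 8 D1 libraries and none at D5, and lay between Msr1 and Fgf20, between Trib1 and 4933412E24Rik, between Rtl1 and Dio3, between Hrh4 and Zfp521, and between Sox2 and Atp11b. In WT CTL, 40.9% of desert regions were lost from D1 to D5 against a background of 32.9%, and 0.419% were gained against 0.409%. From D0 to D1 CTL in WT, 7.88% were gained against 7.44% and 4.29% lost against 2.63%.

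By medium, none of 321 tested desert regions passed the exact permutation test, where the background was 0% of 3909 regions. At an unadjusted p under 0.05 there were 17 desert regions, all higher in MR, and 213 higher and 17 lower over all regions. In WT at D1, 14.3% of desert regions were gained in MR against a background of 10.2%, and 1.76% were lost against 1.75%. In WT at D5, 37.9% were gained in MR against 27.9%, and 0.213% lost against 0.494%. In KO at D1, 0.613% were gained in MR against 0.369%, and 2.80% lost against 4%. MR lists were longer than CTL lists in WT and shorter in KO at D1, so the counts moved with list length.

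Desert regions were spread over 1038 stretches between neighbouring coding genes, and 123 stretches with at least 20 regions each held 41.8% of them. The stretch with most lay between Myc, a growth-promoting transcription factor, and Gsdmc, with 99 regions over 1785.61 kb (chr15:61990362-63775970). It was followed by Klf4, a pluripotency and epithelial transcription factor, to Actl7b with 69, Gadd45g to Diras2 with 67, Nmbr to Cited2 with 58, Rps24 to Zmiz1 with 56, Fgf9 to 1700129C05Rik with 55, Rasgrp1 to Thbs1 with 55, Zeb2 to Acvr2a with 52, Mn1 to Cryba4 with 51 and Klf14 to Mkln1 with 50. The next 5 were Agtr1b to Tbl1xr1 with 49, Plpp3 to Usp24 with 48, H2al1j to Bcor with 44, Slc10a2 to Efnb2 with 44 and Bcl2l11 to Spdye4c with 41. Per Mb of desert the 3 densest of the 15 were Klf14 to Mkln1 at 208, Bcl2l11 to Spdye4c at 179 and Gadd45g to Diras2 at 147 regions.

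In each of these 15 stretches the WT and the longer KO lists overlapped. Between Myc and Gsdmc the WT libraries, 4 of 10 of them from D5, called 11 to 51 regions, the 8 longer KO lists, 2 of them from D5, called 26 to 60, and the short lists 2 and 3. Low WT values came from D5 CTL, with 11 regions in both libraries. Between Fgf9, a growth factor, and 1700129C05Rik the KO lines stood apart from each other: line 1 called 35, 32 and 30 regions at D0, D1 CTL and D1 MR, line 2 called 4, 8 and 4, and WT libraries called 2 to 21. Between Plpp3 and Usp24, line 1 called 39, 27 and 22, line 2 called 14, 14 and 12, and WT libraries 2 to 20.

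Desert regions also formed tight clusters. With regions up to 10 kb apart joined, there were 5318 runs, of which 3557 held 1 region and 228 held 5 or more, 1504 regions in all. The largest held 35 regions in 68.9 kb (chr6:31061957-31130872), between Klf14 and Mkln1, with 13 of them in Lncpint. The genotypes overlapped, with 9 to 27 called in WT libraries and 12 to 28 in the longer KO lists. The others held 19 to 12 regions: 1600014C23Rik to Vegfa, a vessel growth factor, with 19; Chst1 to Syt13 with 17; Myc to Gsdmc, all in Pvt1, with 13; Haao to Zfp36l2 with 13; and 12 each for Ubash3b to Gm40514, all in Mir100hg, Gas1 to Dapk1, Mn1 to Cryba4 and Gadd45g to Diras2. The Vegfa cluster was called at 6 to 13 regions in WT, at 11, 11 and 8 in KO line 1 at D0, D1 CTL and D1 MR, within the WT range, and at 3, 4, 5, 3 and 2 in the 5 libraries of KO line 2.

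The second largest cluster stood apart by genotype. It held 21 regions in 62.1 kb of the X chromosome (chrX:50561040-50623130) between Olfr1324 and Stk26, and 20 of them lay in Firre, a long non-coding RNA gene that escapes X inactivation and helps anchor the inactive X. The 10 WT libraries called at most 3 regions of this cluster, and 7 of them called none. KO line 1 called 16 at D0, 20 at D1 CTL and 17 at D1 MR, and 0 in its short lists at D5. KO line 2 called 7, 13, 16, 13 and 11 at D0, D1 CTL, D1 MR, D5 CTL and D5 MR. The longer KO lists and the WT lists did not overlap.

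Of the 13 regions of this cluster that could be tested, 3 passed, each called in 0 WT and 8 KO libraries (adjusted exact permutation p = 0.0353): chrX:50572668-50572959, chrX:50600363-50600565 and chrX:50605607-50605843. Their mean percentiles in KO were 74.4, 51.2 and 62.1. The region at the start of Firre, chrX:50635319-50635510, whose promoter window is printed above, was instead called in 10 WT and 7 KO libraries, at mean percentiles of 61.8 and 51.8. The X chromosome as a whole held 1.44% to 1.61% of peaks in WT and 1.48% to 1.69% in KO at D0 and D1. Firre is built of repeated units, and how reads with several matches were handled is not given in the sources used here.

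**Figure D4:**
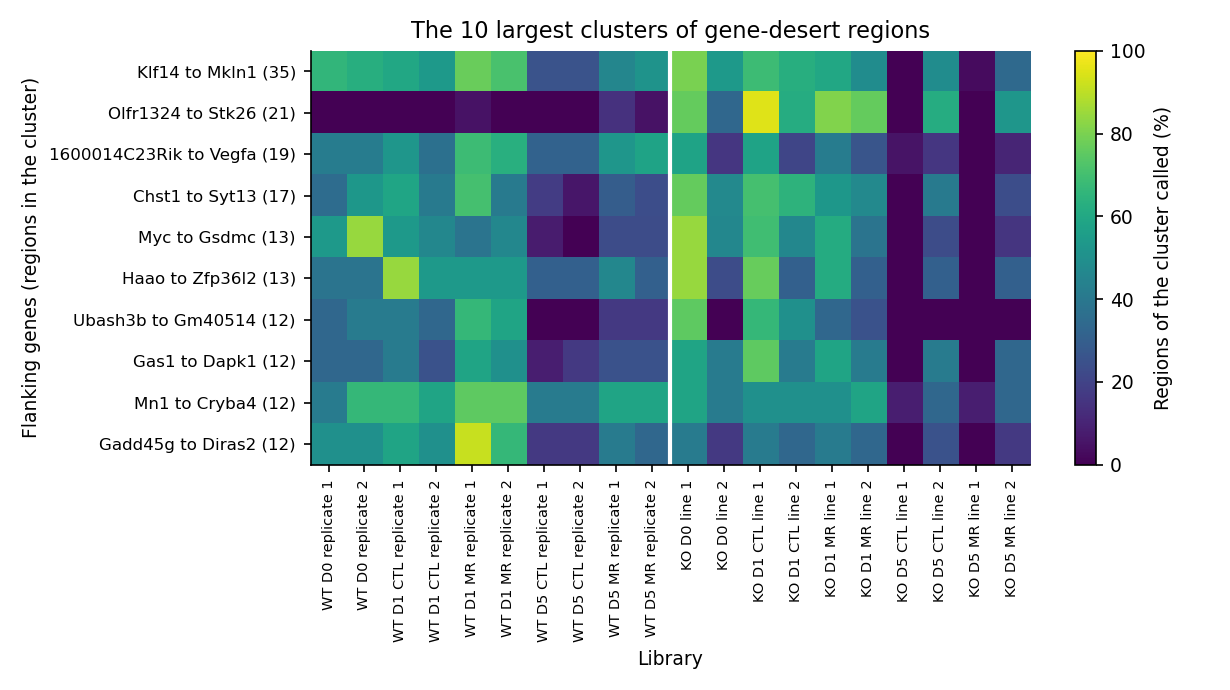
Percent of the regions of a cluster called (colour) in each library (x axis, WT left and KO right of the white line) for the 10 largest clusters of gene-desert regions (y axis, flanking genes with the number of regions). The cluster between Olfr1324 and Stk26, in Firre, has at most 3 of 21 regions called in WT and 7 to 20 in the KO lists other than those of line 1 at D5.

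Of the 1038 stretches, 108 held at least 1 desert region that passed as higher in KO, 93 held at least 1 that passed as lower, and 5 held both. The 8 places that follow were picked after their values were seen, as those with most such regions or the widest separation, so their values are a description with no test. Between Clnk and Hs3st1, a heparan sulfate sulfotransferase gene, 18 desert regions had 0 calls in each of 10 WT libraries. KO line 1 called 15, 14 and 12 of them at D0, D1 CTL and D1 MR, and line 2 called 3, 4, 3, 2 and 3 over its 5 libraries. On both sides of Bmp2 lay 36 desert regions, with 1 call in WT D1 MR replicate 1 and 0 in the other WT libraries. KO line 1 called 19, 32 and 23 there at D0, D1 CTL and D1 MR, and line 2 called 5, 8, 8, 4 and 1. In both places line 1 lay above line 2 in each condition of D0 and D1.

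The lines were closer to each other beside Epha7. Between Epha7 and Map3k7, WT libraries called 0 to 3 of 22 regions, line 1 called 12, 13 and 10, and line 2 called 6, 12, 11, 10 and 6. Between Adgrl2 and Adgrl4, which encode adhesion G protein-coupled receptors, WT libraries called 0 to 6 of 39 regions, line 1 called 25, 26 and 19, and line 2 called 6, 13, 7, 8 and 3. Of the regions between Adgrl2 and Adgrl4, 3 passed as higher in KO and 1 as lower. In these 2 stretches the D5 lists of line 1 called 0 regions.

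In 4 places fewer regions were called in KO. Between Dyrk2 and Cand1, where the Gm33624 promoter printed above lies, WT libraries called 6 to 18 of 19 regions and the longer KO lists 1 to 7, and 5 regions passed as lower. Between Stc2, a secreted glycoprotein gene, and Bod1, WT libraries called 2 to 8 of 8 regions and KO libraries 0 or 1, and 3 regions passed as lower. There the 2 genotypes did not overlap. Between Pabpc6 and Qk, an RNA-binding protein gene, WT libraries called 9 to 26 of 32 regions and the longer KO lists 4 to 18. Between Egfl6 and Tmsb4x on the X chromosome, WT libraries called 3 to 11 of 14 regions and the longer KO lists 1 to 5. In these last 2 places, and between Dyrk2 and Cand1, the ranges overlapped.

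**Figure D5:**
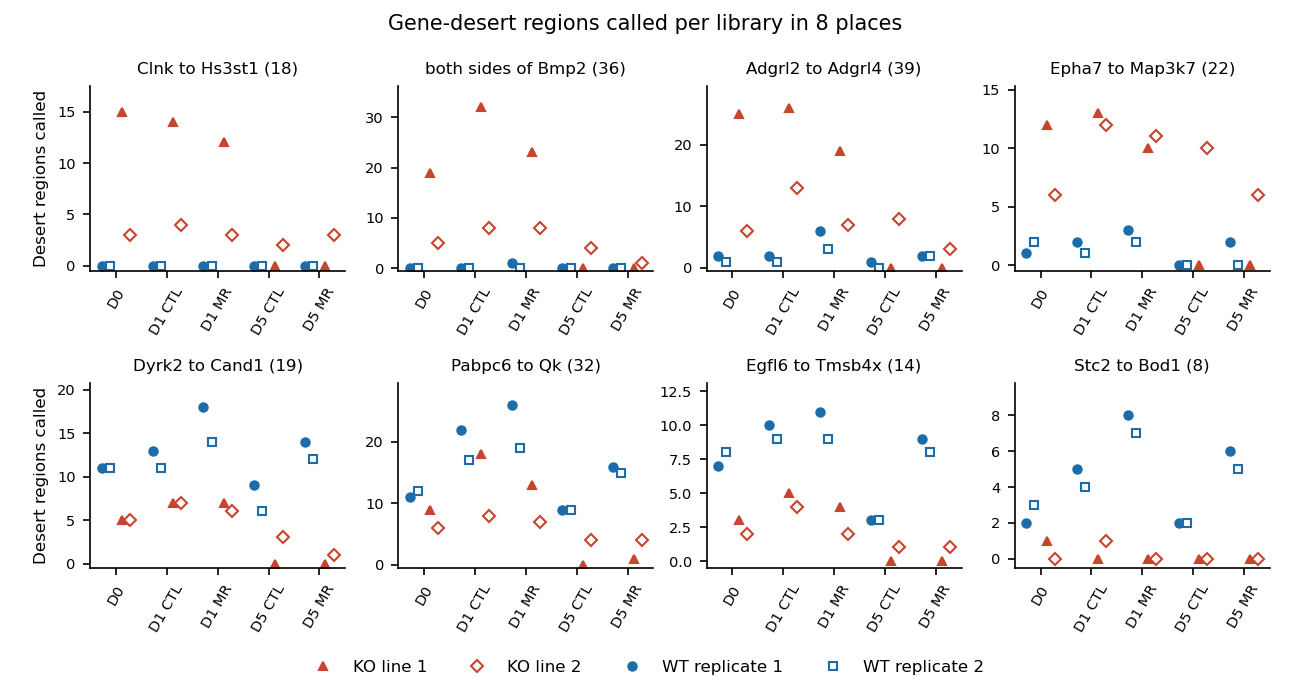
Number of gene-desert regions called (y axis) by day and medium (x axis) in 8 places, 1 point per library, with the number of desert regions in brackets. In the upper row KO lists other than those of line 1 at D5 lie above the WT lists of the same condition (0 of 18 called in each WT library between Clnk and Hs3st1). In the lower row KO lists lie below them, except line 1 at D1 CTL between Pabpc6 and Qk, with 0 or 1 called between Stc2 and Bod1 in KO and 2 to 8 in WT.

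The genes that flank deserts were read against 5 lists of genes. Of all 21631 coding genes, 8.47% flanked a desert region. Among developmental transcription factors it was 66 of 88 genes (75%), and among cadherins, protocadherins and other adhesion or guidance proteins 56 of 74 (75.7%). Secreted signals and their binding proteins had 35 of 66 (53.0%), muscle regulators and muscle genes 10 of 50 (20%), and the sensory receptor families 6 of 1515 (0.396%). Only a gene beside a wide gap without coding genes can flank a desert region, and gap width was not matched. The shares therefore do not separate gap width from the presence of open regions. The lists were chosen with earlier results known, so these shares are a description.

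Beside developmental transcription factors lay 1072 desert regions, with 130 on both sides of Myc, 69 beside Klf4, 54 beside Sox9, a cartilage and gonad factor, and 52 beside Zeb2, a repressor of epithelial genes. Of 179 tested for genotype, 16 (8.94%) had more KO calls and 15 (8.38%) had fewer, near the 9.97% and 9.69% of all tested desert regions, and 104 of 159 (65.4%) had fewer calls at D5, near the 65.6% of all tested desert regions. Over the 3 conditions of D0 and D1, where both genotypes have 2 libraries each, the mean number called on both sides of Myc was 47.2 ± 12.4 (SD, n = 6) in WT and 61 ± 14.7 (SD, n = 6, from 2 lines) in KO, and the ranges of 31 to 67 and 39 to 79 overlapped. Beside Sox9 it was 23.3 ± 5.54 and 27.2 ± 9.196, a difference smaller than either SD.

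Beside the adhesion and guidance genes, 18 of 100 tested regions had more KO calls and 6 had fewer, against 9.97% and 9.69% of all tested desert regions, with no test of the list. The most regions lay beside Efnb2, an ephrin ligand, with 44, Epha7 with 35, Fat4, a giant cadherin, with 33 and Cntnap5a with 25. At D0 and D1 the mean called beside Fat4 was 5.33 ± 2.16 (SD, n = 6) in WT and 14.8 ± 4.79 (SD, n = 6, from 2 lines) in KO, with ranges of 3 to 9 and 9 to 20. Beside Efnb2 it was 17 ± 7.48 in WT and 14.3 ± 4.89 in KO, and the ranges overlapped.

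Beside secreted signals, 7 of 61 tested regions (11.5%) had more KO calls and 5 (8.197%) had fewer, near the shares of all tested desert regions. Fgf9 and Thbs1, a matrix glycoprotein gene, had 55 regions each, Cxcl12, a chemokine gene, had 45 and Bmp2 had 36. Beside Cxcl12 the KO line 1 libraries of D0 and D1 called 35, 35 and 25 regions, line 2 called 11, 14, 10, 12 and 5, and WT libraries 2 to 13.

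The genes of the short muscle list bordered 53 desert regions in all. Eya4 and Eya1, transcriptional co-activators, had 17 and 15, Mef2c, a muscle transcription factor, had 11 and Msc, a repressor of myogenic factors, had 6. Of 9 tested regions 1 had more KO calls and 1 had fewer, 11.1% each and near the shares of all tested desert regions, and 3 of 7 had fewer calls at D5, too few to set against 65.6%. Beside the sensory receptors also lay 53 regions, and 24 of these belong to the stretch from Olfr1324 to Stk26 that holds Firre. There 3 of 17 tested regions had more KO calls and 0 had fewer, and all 3 are the Firre regions above.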

How the data were processed

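The deposited files are 20 broadPeak lists, 1 per library, on GRCm38 per the submitters' processing notes. Per the labels' protocols, an ATAC-seq kit was used on lysed cells, followed by PCR and paired-end sequencing; the aligner, filters, duplicate handling, transposase shift and peak caller are not given in the sources used here, and their effect was not tested. Each deposited list gives, as the authors' own values, each peak's fold enrichment (a ratio) and the −log10 of its p-value and q-value; the lowest −log10 q-value was 1.00, and values were used only to rank or filter within a list.

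All 787806 peaks were merged at 1 bp overlap, and distances were taken to 21631 protein-coding spans of a GRCm38.p6 RefSeq table. A library called a region that one of its peaks overlapped. Strength is the percentile of −log10 q in its own list. Tests were exact permutations over libraries within strata (7776 arrangements for genotype, 1296 for medium and for D5 against D1, 36 for D1 against D0), or sign flips over 10 groups, two-sided, with Benjamini-Hochberg adjustment over 13 tests. Regions were tested on calls and adjusted over all testable regions at 0.05. KO libraries of a line share a number by label; the correlation of replicate differences over desert regions was 0.139 to 0.600 in KO and −0.02 to 0.07 in WT, so numbers pair KO libraries by line and not WT libraries.

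Simulated calls were drawn independently for each library, with no effect of KO line. They therefore cannot show how often recurring lines would give false calls. On such calls over 101352 regions for KO minus WT, the region test called 0 regions when nothing was changed. It called all of 200 desert regions lost in KO. Of 200 gained in KO but absent from the 2 short lists, it called 0 after adjustment and 200 at an unadjusted p under 0.05; of 1336 gained likewise it called all 1336.

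Members and gene lists were chosen with earlier results of these data known. Named were the 15 stretches with most desert regions, the 10 largest clusters, the 5 regions with lowest p per test and direction (ties by call difference, then mean percentile), the 4 genes per list with most flanking regions, the 10 regions called in most libraries and 3 on each side of the distance limit; other names are said to be chosen later. Alternatives changed the distance, gene set, q-value, list length, coverage, strength measure, chromosomes, libraries and pairing. Computations used Python 3.11.15, numpy 2.4.6, pandas 2.3.3 and scipy 1.17.1.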

Additional observations from a re-analysis of the deposited data

Results flagged for a closer look

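The change in desert share with methionine restriction at D5 went opposite ways in the 2 genotypes. It was 2.01 and 1.41 points higher in MR in WT replicates 1 and 2, and −0.36 and −0.47 points in KO lines 1 and 2, so that KO minus WT was −2.13 points. An exact permutation of genotype within D5 CTL and D5 MR gave p = 0.389, and 36 arrangements allow no p below 0.0556. The values of KO line 1 rest on lists of 644 and 1881 peaks.

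The change from D0 to D1 CTL also went opposite ways, −0.01 and −0.57 points in WT and 0.78 and 0.09 points in KO lines 1 and 2, which makes KO minus WT 0.72 points. The exact permutation test gave p = 0.778, and WT replicate 1 and KO line 2 each moved by less than 0.1 points. Pairing WT libraries by number has no support beyond the number itself.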

How the results depend on the processing

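The higher KO share kept its direction in every alternative run, and leaving out 1 replicate or line gave 1.67 to 1.86 points. It did not pass after adjustment without the D5 libraries (2.25 points, fewer samples), nor without either WT replicate or KO line 2. The D5 share difference, −3.13 to −0.88 points on leaving out 1 replicate or line, failed without WT replicate 1, WT replicate 2 or KO line 2. Without the D5 libraries the desert-minus-other differences also failed, at −6.22 (percentile), −0.30 (log2 length), −9.28 and −3.72 points (agreement, and at equal strength), where 64 arrangements limit the p. With 1 replicate or line out, agreement was −9.00 to −6.14 points and at equal strength −4.16 to −1.76, untestable at 0.05 over 5 groups (smallest p 0.0625), and strength −5.85 to −5.36, which failed without KO line 2. At −log10 q of at least 2, strength was −4.53 (adjusted exact permutation p = 0.0592).

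Counts of desert regions in the region test moved most. For KO minus WT they were 477 at 50 kb, 133 at 200 kb, 44 with every gene of the table and 135 with at most 20000 peaks per list. Without the D5 libraries the count was 153, and with 1 replicate or line out 0 to 359. The 359 came without KO line 1, with 225 higher and 134 lower in KO of 1105 tested. Over all 13261 regions tested there, 783 were higher and 2496 lower. With 50% coverage for a call no region of the genome passed (576 desert regions, and 7125 of all 18975, at an unadjusted exact permutation p under 0.05). At 50 kb, 191 of 2441 tested had more KO calls and 286 had fewer. At 200 kb it was 84 and 49 of 672, and with every gene 34 and 10 of 195. The background there was 511 and 3002 of 18700. With 20000 peaks it was 69 and 66 of 692, against 328 and 1364 of 10789. Without D5 it was 105 and 48 of 643, against 358 and 989 of 7182. For D5 minus D1 all desert regions that passed had fewer calls at D5. They were 1398 of 2151 at 50 kb, 386 of 578 at 200 kb and 74 of 121 with every gene, where the background was 10686 of 16153. With 50% coverage they were 534 of 961, against 8767 of 15203. With at most 20000 peaks no region of the genome passed (114 desert regions, and 1278 of all 5520, unadjusted). None passed without the D5 libraries of KO line 1, and 0 to 583 desert regions did with 1 replicate or line out. Without KO line 2 it was 583 of 640, against 6798 of 7461 over all regions. Without KO line 1 it was 263 of 294, against 3511 of 3898. Without WT replicate 1 or 2 no region passed, with 315 and 406 desert regions, and 3697 and 4656 of all regions, unadjusted. With the replicate block the desert count for KO minus WT was 462, with 249 higher and 213 lower in KO of 643 tested. Over all 8234 regions tested there, 942 had more and 4540 fewer KO calls. For D5 minus D1, 498 of 563 desert regions had fewer calls at D5, against 5943 of 6792 over all regions. The replicate block gave 1.77 points for the KO share (adjusted exact permutation p = 0.0391) and changed no other call. A block over KO lines only, the pairing the labels give, changed none. The distance and gene-set settings change the number of regions by construction; elsewhere the cause was not tested.

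Contrasts that did not pass changed sign as follows. The share of D1 CTL minus D0 was −0.0061 at 50 kb, −0.079 with 20000 peaks, −0.16 with 50% coverage, and −0.10 to 0.24 with 1 replicate or line out. The median percentile, KO minus WT, was −2.11 with every gene, −0.96 without the D5 libraries and −0.16 without the D5 libraries of KO line 1. For MR minus CTL it was 0.64 at 200 kb, 6.50 with every gene, 2.76 with 50% coverage and 0.016 without the D5 libraries of KO line 1. For D5 minus D1 it was −4.71 with every gene, −0.41 without the D5 libraries of KO line 1, and −1.17 to 4.37 with 1 replicate or line out. For D1 CTL minus D0 it was 0.0061 at −log10 q of at least 2 and 1.56 with 20000 peaks. Settings without the D5 libraries of KO line 1, and the average over chromosomes, were chosen after seeing the data.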
